A study of Mus musculus with 2 samples.

Results

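IN1 is the deposited cluster that the study's authors named Immature neuron 1. Its members were all cells in the table of that cluster, which held 50 of the 10804 cells in the series, 41 from the WT library and 9 from the iKD library. The cells were EYFP+ cells sorted from the dentate gyrus (DG) of adult mice and sequenced as 1 droplet library per genotype, each from 5 pooled mice. WT mice were NestinCreERT2;VEGFWT/WT;ROSA-STOP-EYFP and iKD mice, labelled KO in the deposit, were NestinCreERT2;VEGFfloxed;ROSA-STOP-EYFP. Both groups received tamoxifen (TAM) and were taken 21 d later, and in both the Nestin promoter drives the inducible Cre, so that EYFP marks cells that had an active Nestin promoter at TAM and their progeny. IN1 was compared with the clusters named IN2 (288 cells), eNB (2169 cells) and NB (959 cells), with both libraries pooled.

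In the DG, neural stem cells give rise to intermediate progenitors, then to neuroblasts and immature neurons that make doublecortin (Dcx) and early neuronal tubulin (Tubb3), and later to granule neurons with synaptic proteins. Microglia, the resident macrophages of the brain, come from the yolk sac and carry P2ry12, Tmem119, Cx3cr1 and the C1q genes. Many neuronal adhesion and synapse genes are among the longest genes of the genome.

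The 50 IN1 cells held 424392 unique molecular identifiers (UMIs, counted transcript molecules). The number per cell ran from 4622 to 11728 with a median of 8697.5, against medians of 8304 in eNB, 6652 in NB and 3102.5 in IN2. The level of a gene is its mean over cells of UMIs per 10,000 UMIs of the cell. Ratios are log2 of IN1 over the other cluster, each level with 0.01 added, and a gene was counted as higher or lower at 2-fold or more when its level reached 0.5 in the higher cluster. Intervals are exact at 95% and cover counting error only. No p-value is given, because the clusters were made from these same genes and each genotype had 1 library. Of the barcodes, 9 occurred in both libraries, and 0 of these belonged to IN1 cells. A droplet with cells of both sexes would hold Xist together with Y-linked UMIs. Such cells numbered 0 of 50 in IN1 (exact upper limit 7.11%), 1.15% in eNB and 2.78% in IN2. The eNB and IN2 shares lie under the IN1 limit, and droplets with cells of the same sex are not seen this way.

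Microglia genes were prominent among the genes with the highest levels in IN1. Cst3, a secreted protease inhibitor, led at 389 and the nuclear RNA Malat1 followed at 283. The complement genes C1qa at 70.3 and C1qb at 61.5 were also among the 10 highest. The purine receptor P2ry12 stood at 31.8, the fractalkine receptor Cx3cr1 at 42.7, the growth factor receptor Csf1r at 25.1 and the membrane protein Tmem119 at 11.7, and each of these 4 was seen in all 50 cells. The 12 microglia markers summed to 424 in IN1, with 315 in the lowest cell and 640 in the highest, against 406 in eNB, 442 in NB and 157 in IN2. All 12 were present in 44 of 50 IN1 cells and the other 6 cells had 11. None of the 12 differed by 2-fold from eNB, and their median log2 ratio was 0.03. The 10 microglia transcription factors, among them Spi1 at 4.41, Irf8 at 2.68 and Mef2c at 15.2, summed to 110 in IN1 and 113 in eNB.

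The markers that the name would call for were near or at 0. Of the 10 neuroblast and immature neuron genes, 7 had 0 UMIs in IN1. These were Dcx, Tubb3, the transcription factors Neurod1, Neurod2 and Sox11, the calcium-binding protein gene Calb2 and the growth cone gene Dpysl3. A count of 0 allows a level of up to 0.0707 in IN1, and the IN2 level was above that limit for Tubb3 at 0.48, Sox11 at 0.46, Dpysl3 at 0.28 and Dcx at 0.19. Igfbpl1 had 2 UMIs in 1 cell and the tubulin regulator Stmn2 had 1 UMI. Prox1, the granule lineage transcription factor, had 9 UMIs in 8 cells, a level of 0.23 against 0.21 in eNB and 0.36 in IN2. The 10 genes summed to 0.29 in IN1, 0.23 in eNB and 3.04 in IN2. The IN2 value came mostly from the iKD library, where it was 8.18 (574 UMIs in 94 cells), against 0.547 in the WT library (40 UMIs in 194 cells). In IN1 the sums were 0.259 in WT and 0.455 in iKD cells. The name Immature neuron 1 was therefore not matched by the markers of immature neurons, while every IN1 cell carried at least 11 of the 12 microglia markers, and the cluster is called IN1 here by its deposited label only.

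Across the 32285 genes listed, the log level profile of IN1 correlated with that of IPC1 at 0.992, eNB at 0.991, NB at 0.984 and IN2 at 0.908 (Pearson r across genes, which are not independent replicates). By rank the order was another, with Spearman rho of 0.889 for IPC1, 0.887 for eNB, 0.901 for NB, 0.884 for IN2 and the highest value, 0.908, for qNSC1 and aNSC. Against eNB, 12 of 4115 genes (0.292%) were higher in IN1 and 22 (0.535%) were lower, with a median log2 ratio of 0.00. Against NB, 98 of 4237 genes (2.31%) were higher and 32 (0.755%) were lower. Against IN2, 884 of 4643 genes (19.0%) were higher and 775 (16.7%) were lower. Of 3792 genes at a level of at least 0.5, 275 had their highest level of all 12 clusters in IN1, and for 1 of these the next cluster was 2-fold or more below. The 10 genes furthest above the next cluster included Mttp, a lipid transfer protein gene, at 0.58 against 0.31 in IN2, and Prdm10, a zinc finger regulator gene.

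**Figure D1:**
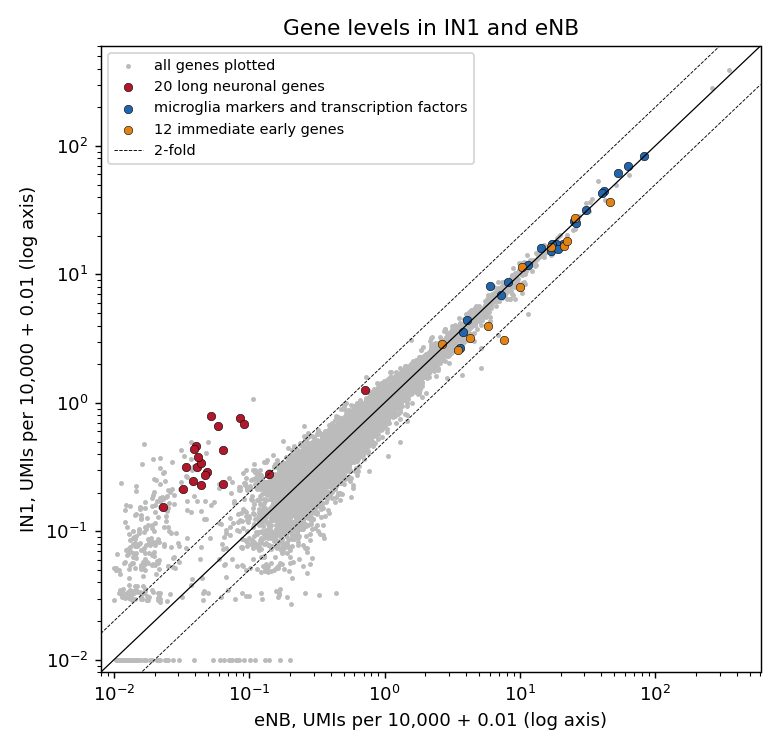
Level of each gene in IN1 against its level in eNB, in UMIs per 10,000 with 0.01 added, on log axes, for genes at 0.2 or more in any of the 4 clusters. Coloured points are the 20 long neuronal genes, the microglia markers and transcription factors and the 12 immediate early genes, and dashed lines mark 2-fold. The 20 long neuronal genes lie above the diagonal, 18 of them by 2-fold or more, and the microglia genes lie along it.

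The study's markers of the cluster were Nav3, Lsamp and Rbfox1, and they behaved in different ways. Nav3, which encodes neuron navigator 3, a microtubule-associated protein, and spans chr10:109681259-110456204 on the minus strand (GRCm38), had 861 UMIs in 49 of 50 IN1 cells. Its level was 19.8 in IN1, 19.4 in eNB, 18.9 in NB and 29.3 in IN2, so it did not set IN1 apart (log2 ratio over eNB 0.03, interval -0.07 to 0.13). Lsamp, a cell adhesion protein gene of the IgLON family at chr16:39984361-42181679 on the plus strand, had 29 UMIs (interval 19.4 to 41.6) in 22 cells and at most 3 in a cell. Its level was 0.672 in IN1, 0.163 in NB, 0.0811 in eNB and 7.27 in IN2. IN1 thus stood 8.29-fold above eNB (log2 2.90, interval 2.28 to 3.49) and IN2 stood 10.8-fold above IN1. A UMI of Lsamp was found in 44% of IN1 cells (interval 30 to 58.7%), 6.09% of eNB cells and 27.8% of IN2 cells. Rbfox1, a splicing regulator gene at chr16:5885355-7411526 on the plus strand, had 54 UMIs in 27 cells and a level of 1.25 in IN1, 0.71 in eNB, 0.685 in NB and 4.14 in IN2 (log2 ratio over eNB 0.80, interval 0.38 to 1.20). Rbfox1 was higher in IN1 than in eNB by less than 2-fold and also had UMIs in 33.1% of eNB cells.

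Lsamp and Rbfox1 belong to a list of 20 genes that neurons express strongly, of which 19 span at least 699.2 kb and up to 2270.7 kb. The exception in length is Meg3, a noncoding RNA gene of 30.7 kb. All 20 genes were above eNB and NB and below IN2 in IN1. With no level minimum, 18 of the 20 were 2-fold or more above eNB, against 1326 of 19055 genes (6.96%) with a UMI in either cluster. That share includes genes with no UMI in IN1, which could not be higher, so the shares are not matched for level. At the 0.5 minimum, where 0.292% of all genes were higher, 5 of the 20 entered and 4 were higher, but these 4 entered through their IN1 level alone and had to differ. Over all 20 genes the log2 ratios over eNB ran from 0.80 to 3.93. The genes summed to a level of 8.57 in IN1, 1.55 in eNB, 1.64 in NB and 55.3 in IN2, so that IN1 was 5.51-fold above eNB and IN2 was 6.46-fold above IN1. Among the 12 clusters IN1 was the second, after IN2, for 19 of them and the third for Dlgap1. The list was chosen with earlier results known, and 2 of its genes are the study's own markers of IN1.

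The scaffold gene Dlg2, which encodes PSD-93 at the postsynaptic density (chr7:90476672-92449247, plus strand), had 33 UMIs in 17 IN1 cells. Its level was 0.783 in IN1, 0.0421 in eNB and 2.91 in IN2, 18.6-fold above eNB (log2 3.93, interval 3.29 to 4.54). One cell held 13 of the 33 UMIs. Dlgap1, whose product binds PSD-95 family scaffolds, had 11 UMIs in 10 cells and a log2 ratio over eNB of 2.57.

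Among the adhesion genes, Opcml, an IgLON gene like Lsamp, had 21 UMIs in 14 cells (0.455 against 0.0303 in eNB). The presynaptic neurexin Nrxn3 had 17 UMIs in 15 cells, with a log2 ratio over eNB of 3.48. Cntnap2, a relative of the neurexins found at the axon, had 13 UMIs in 9 cells (log2 2.93). The cadherin family gene Pcdh9 had 17 UMIs in 11 cells and a level of 0.422, against 0.0539 in eNB and 5.78 in IN2. Its level was 0.229 in the 41 WT cells (8 UMIs) and 1.30 in the 9 iKD cells (9 UMIs), with log2 ratios over eNB of 1.65 and 4.65. Cadm2, Negr1, Ptprd and Ctnna2, which also act in cell contact, had log2 ratios over eNB of 3.17, 0.99, 1.87 and 2.73. Without the iKD cells the ratio of Ctnna2 was 1.93. Negr1 therefore stood just under 2-fold, with an interval from -0.09 to 1.90.

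Kcnip4, which encodes a subunit that modulates voltage-gated potassium channels (chr5:48389502-49524907, minus strand), was the list gene found in most IN1 cells after Rbfox1. It had 32 UMIs in 23 cells (46%) and a level of 0.755, against 0.0752 in eNB, 0.0671 in NB and 3.04 in IN2. Meg3 (chr12:109541001-109571726, plus strand) had 26 UMIs in 18 cells and stood at 0.656 against 0.0492 in eNB, 13.3-fold above, and at 3.87 in IN2. Fgf14, which regulates sodium channels, Nrg3, a ligand of ErbB4, Lrp1b, a lipoprotein receptor relative, and Csmd1, a complement regulator, had log2 ratios over eNB from 2.37 to 3.21.

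**Figure D2:**
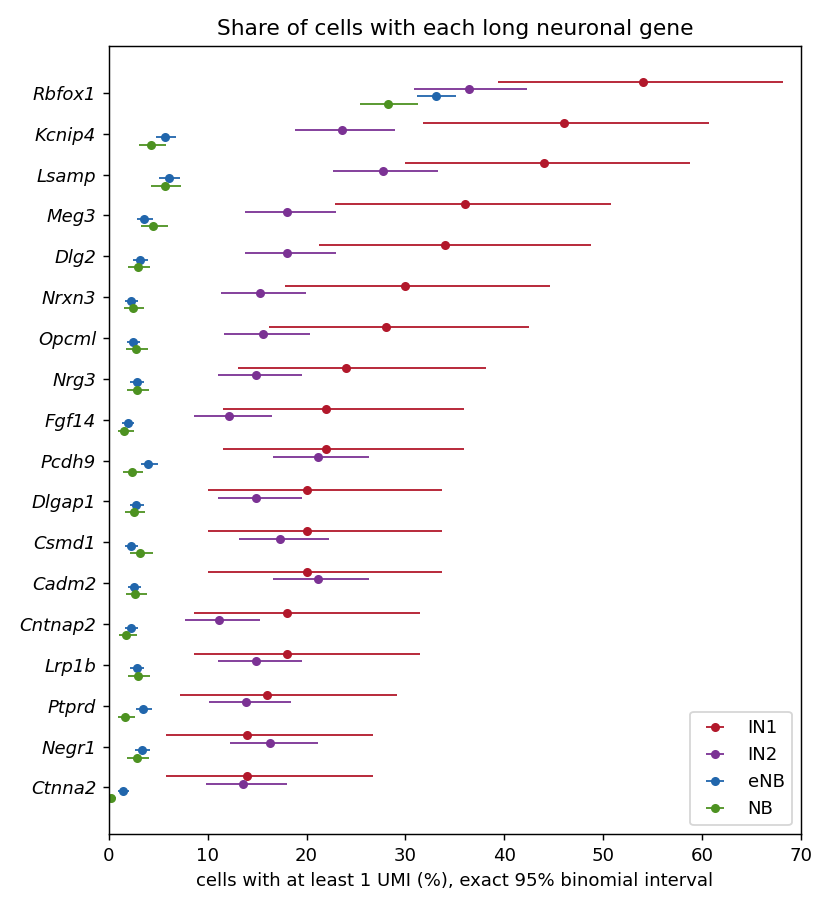
Percent of cells with at least 1 UMI of 18 of the 20 long neuronal genes in IN1, IN2, eNB and NB, each cell at its own depth, with exact 95% binomial intervals. For each of the 18 genes plotted the IN1 interval lies above the eNB interval, with Lsamp at 44% in IN1 and 6.09% in eNB.

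The level of these genes in IN1 came from many cells with few UMIs each. The 20 genes gave 360 UMIs in IN1, from 0 to 17 per cell with a median of 7 (mean 7.20, SD 3.70), and 49 of 50 cells had at least 1. The number of list genes seen in a cell ran from 0 to 10 with a median of 5, and 29 of 50 cells (58%) had 5 or more. Of 250 pairs of a list gene and an IN1 cell with a UMI, 182 (72.8%) had exactly 1 UMI. The 5 cells with the most list UMIs held 20.3% of them.

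IN2 had the opposite form. At its own, lower depth its median was 2 list UMIs per cell, yet its highest cell held 800, and 29 of the 288 cells held 88.7% of them. The variance over the mean was 347 in IN2 and 1.90 in IN1. In eNB the median was 1 list UMI per cell, 40.0% of cells had none, and 17 of 2169 cells (0.784%) had 5 or more list genes. The higher summed level of IN2 thus rested on few cells, while in IN1 it was spread over nearly all of them.

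Depth differed between the clusters, so each cell was also thinned to 4500 UMIs, which kept all 50 IN1 cells, 73 of 288 IN2 cells, 2148 eNB cells and 857 NB cells. At this depth IN1 cells had a mean of 3.56 list UMIs and eNB cells 0.711. The order of the medians of IN1 and IN2 turned, with 3 list UMIs per cell in IN1 and 6 in the 73 IN2 cells. Thinning only removes UMIs, so the rise of the IN2 median from 2 came from leaving out its shallower cells. The mean of the clusters other than IN1 and IN2 lay between 0.547 and 0.722 wherever at least 50 cells remained, including 0.685 in the cluster named Astrocytes. There were 5 or more list genes in 10 of 50 IN1 cells (20%), 2 of 2148 eNB cells (0.0931%) and 35 of 73 IN2 cells (47.9%). Outside IN1, 44 of 10134 cells (0.434%) reached 5 list genes, and 9 of these were outside IN2. At its own depth IN1 had the larger share of cells with a UMI than IN2 for 16 of the 20 genes, but after thinning for 2. The latter compares IN1 with the 73 deeper IN2 cells only.

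**Figure D3:**
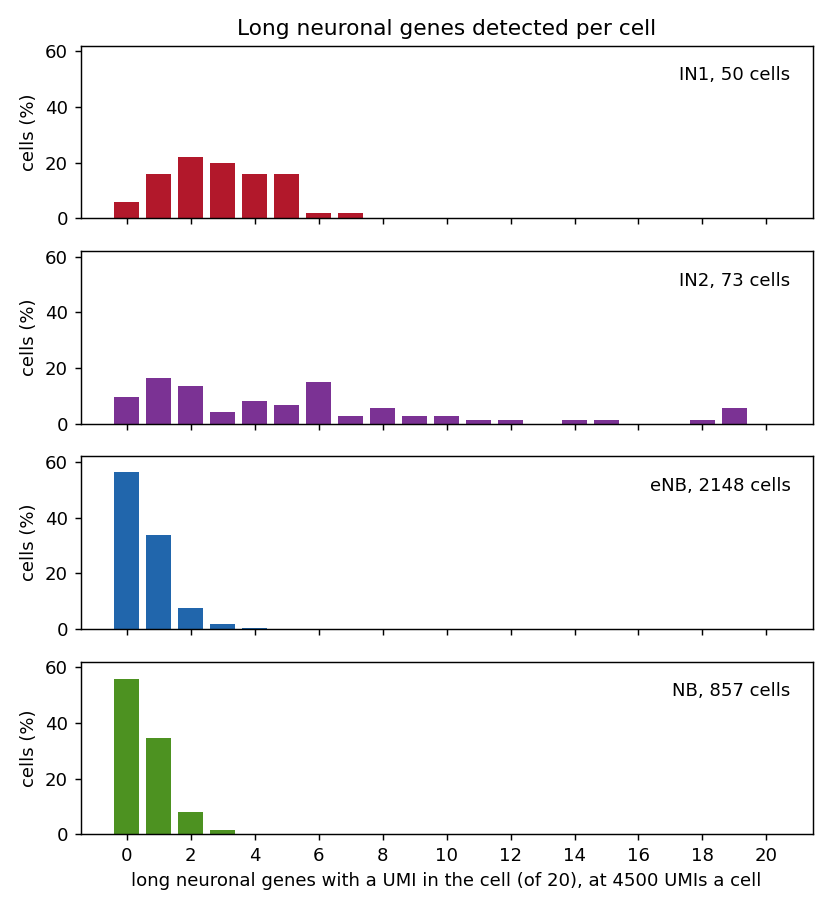
Percent of cells by the number of the 20 long neuronal genes with a UMI, after thinning to 4500 UMIs per cell, in panels for IN1 (50 cells), IN2 (73), eNB (2148) and NB (857). IN1 cells centre on 3 genes, most eNB and NB cells have 0 or 1, and IN2 is spread out to 19.

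The same was looked at in whole gene families of the synapse, 93 genes in 14 families chosen after the values above were seen. Of the 93, 72 had a UMI in IN1 and 65 were above eNB, against 36.0% of the 19055 genes. With a minimum level of 0.2 in either cluster, 29 passed, of which 19 were 2-fold or more higher in IN1 and 0 lower. The higher genes passed this minimum through their IN1 level alone, so that the filter fixed their direction and this split carries no weight. Over all genes at this minimum, 116 of 7231 (1.60%) were higher and 133 were lower. The families summed to 19.7 in IN1, 10.5 in eNB and 75.2 in IN2. They share 10 genes with the list above, and the other 83 summed to 14.4 in IN1, 9.28 in eNB and 44.8 in IN2, 1.55-fold above eNB.

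Glutamate receptor genes had large ratios over eNB. Of 26 genes for AMPA, NMDA, kainate, delta and metabotropic receptors, 19 had a UMI in IN1 and the other 7 had none. All 19 were above eNB, but for most of these genes a single UMI among the IN1 cells would already exceed the eNB level. The 26 genes had 112 UMIs in IN1, with a summed level of 2.65 against 0.237 in eNB and 10.7 in IN2. The metabotropic receptor genes Grm7 (14 UMIs in 11 cells) and Grm5 (17 UMIs in 12 cells) stood at 0.353 and 0.365, with log2 ratios over eNB of 4.22 and 4.1. The kainate subunit Grik2, the NMDA subunit Grin2b and the AMPA subunit Gria1 had log2 ratios of 3.64, 3.63 and 3.29, each from 11 to 15 UMIs. These 5 genes passed the 0.2 minimum through their IN1 level alone, with eNB levels from 0.00942 to 0.0275. The filter thus fixed their direction. Of 11 GABA-A receptor subunit genes, 4 had no UMI in IN1 and the other 7 were above eNB, against 36.0% of the 19055 genes. For most of them too, a single UMI would exceed the eNB level, and none reached a level of 0.2.

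Postsynaptic and presynaptic adhesion genes followed. Nlgn1, a postsynaptic partner of the neurexins, had 19 UMIs in 14 cells and a log2 ratio over eNB of 3.32. Lrrtm4 and Lrfn5, leucine-rich repeat proteins of the synapse, had ratios of 3.54 and 3.82, and the teneurin Tenm2 had 3.08. The eNB levels of Nlgn1, Lrrtm4, Lrfn5 and Tenm2 were low, from 0.0119 to 0.0393, and these genes passed the minimum through their IN1 level alone. Some other family members had higher eNB levels and stood near them. Dlg1 stood at 1.14 in IN1 and 1.06 in eNB, Dlgap4 at 1.02 and 0.96, Camk2d at 4.05 and 4.30 and Vamp2 at 0.28 and 0.31. The filter fixed the direction of the former genes but not of the latter, so the contrast between them carries no weight.

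Genes of mature neurons were present at a few UMIs. Camk2a, a kinase subunit of excitatory synapses, had 11 UMIs in 9 cells (0.25 against 0.06 in eNB), Map2, a dendritic microtubule protein gene, had 9 UMIs in 9 cells (0.19 against 0.016) and Syt1, the calcium sensor of vesicle release, had 8 UMIs (0.20 against 0.02). Calb1, of mature granule neurons, had 0 UMIs, Rbfox3, which encodes NeuN, had 2 and the vesicular glutamate transporter gene Slc17a7 had 3. The 8 genes summed to 1.0 in IN1, 0.14 in eNB and 3.77 in IN2. Of the 6 GABA neuron genes, 4 had 0 UMIs in IN1.

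Very long genes made up a large part of the genes higher in IN1 than in eNB. Of the 116 genes higher in IN1 at the 0.2 minimum, 46 (39.7%) spanned 300 kb or more, against 219 of 7193 genes (3.04%) with a known span and 5 of 131 lower genes. The share of genes that were higher was between 0.783% and 1.24% in each class of span under 300 kb, 12.9% from 300 to 1000 kb (24 of 186) and 66.7% at 1000 kb or more (22 of 33). Of the 46 long higher genes, 45 were higher still in IN2, against 7 of 70 shorter ones. Leaving out the IN1 cell with the most UMIs of each gene, an alternative chosen after the data were seen, 44 of the 46 long genes and 70 of the 116 in all kept a 2-fold ratio.

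The higher genes of 300 kb or more all passed the 0.2 minimum through their IN1 level alone, as did all but 10 of the 70 shorter ones. The filter thus fixed the direction of these genes. Neither the rise of the shares with span nor the share of long genes among the 116 carries weight, and omitting the top cell does not change this. Of the 11 genes of 1000 kb or more at 0.2 or more in eNB, 0 were higher and 1 was lower. From 300 to 1000 kb, 0 of 160 such genes were higher and 4 lower, and under 300 kb, 10 of 6568 were higher and 126 lower. With no minimum, 47 of 58 genes of 1000 kb or more were above eNB, as were 265 of 524 from 300 to 1000 kb and 6447 of 18120 under 300 kb. A gene with no UMI in IN1 counts as not above, so these shares are not matched for level. The summed level of the genes of 1000 kb or more was 89.1 in IN1, 87.2 in eNB and 214 in IN2. Without the genes of the list of 20, 33 of 44 were above eNB, and the sum was 82.9 in IN1, 86.0 in eNB and 176 in IN2. The sum, which the few abundant genes carry, was thus close to that of eNB. Most single genes of this length were above their eNB level, a count that a single UMI can decide for genes of low level.

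**Figure D4:**
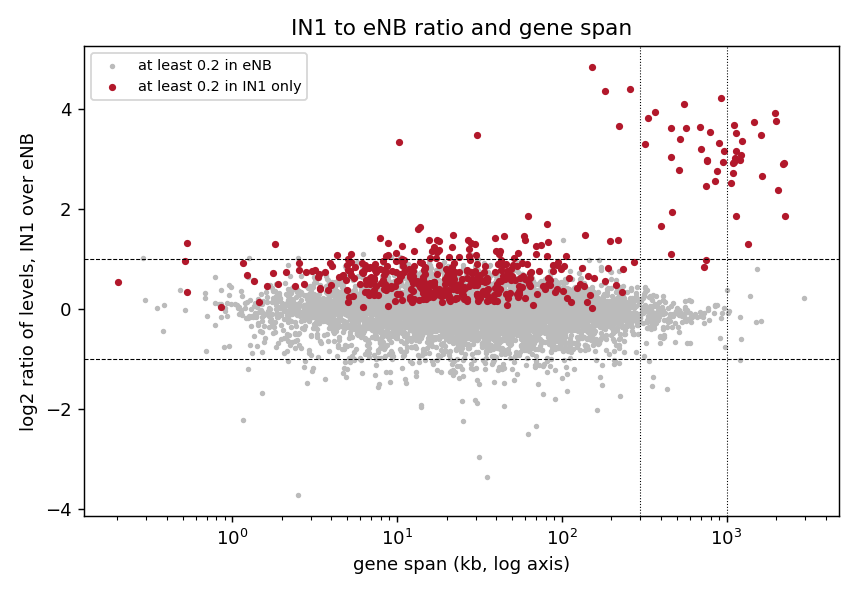
Log2 ratio of IN1 over eNB against gene span in kb (log axis) for genes at 0.2 or more in IN1 or eNB, with dotted lines at 300 and 1000 kb and dashed lines at 2-fold. Red points, genes at 0.2 or more in IN1 only, make up all 22 genes of 1000 kb or more above the upper dashed line.

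Outside the neuronal genes, few differences from eNB were seen. Among the 12 genes higher at the 0.5 minimum were Dlg2, Meg3, Kcnip4 and Lsamp. Others were Prdm10 (0.647 against 0.243), the ribosome assembly gene Pes1 (0.546 against 0.243), Mttp (0.576 against 0.260) and the noncoding RNA Gm15726 (1.57 against 0.719). Of the higher genes named here, only Gm15726 was at 0.5 or more in eNB. The others entered through their IN1 level alone, so the filter fixed their direction. Within the iKD library, Prdm10 and Mttp were lower in IN1 than in eNB (log2 -1.01 and -0.48). The lower genes included Cep112, a centrosome gene, at 0.175 against 0.551, Otud1, a deubiquitinase gene, at 0.374 against 1.05, and Apoe, the lipid carrier gene of glia, at 1.65 against 3.76. Cep112 and Otud1 entered through their eNB level alone, which fixed their direction in the same way. Fosb, an AP-1 subunit gene, was at 3.05 against 7.64 and had a UMI in 70% of IN1 cells.

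Ttr, the transthyretin gene of the choroid plexus, was lower in the pooled cells (1.86 against 5.12), but not within either library. Its level was 0.196 in IN1 and 0.122 in eNB in the WT library, and 9.44 and 9.89 in the iKD library. IN1 held 9 iKD cells in 50, and eNB 1110 in 2169.

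Against NB, IN1 was marked by immediate early genes, which are switched on within minutes by stimuli, tissue dissociation among them. Of the 12 genes, 11 were 2-fold or more higher in IN1 than in NB, against 2.31% of all genes, the exception being Jund (log2 0.62), and the median log2 ratio was 2.0. They summed to 150 in IN1, 177 in eNB, 51.3 in NB and 83.3 in IN2. Fos, an AP-1 subunit gene, had 763 UMIs and a level of 18.3 in IN1, 22.2 in eNB and 2.36 in NB. The anti-proliferative gene Btg2 stood at 27.3 against 6.63 in NB, Junb at 16.3 against 4.17, the zinc finger gene Egr1 at 7.97 against 2.09 and the stress factor gene Atf3 at 2.56 against 0.477. The IN1 cells were thus on the side of eNB, where only Fosb of the 12 differed by 2-fold. The summed level was 150 in the IN1 cells of both libraries, against 44.2 in WT NB cells and 58.2 in iKD NB cells.

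**Figure D5:**
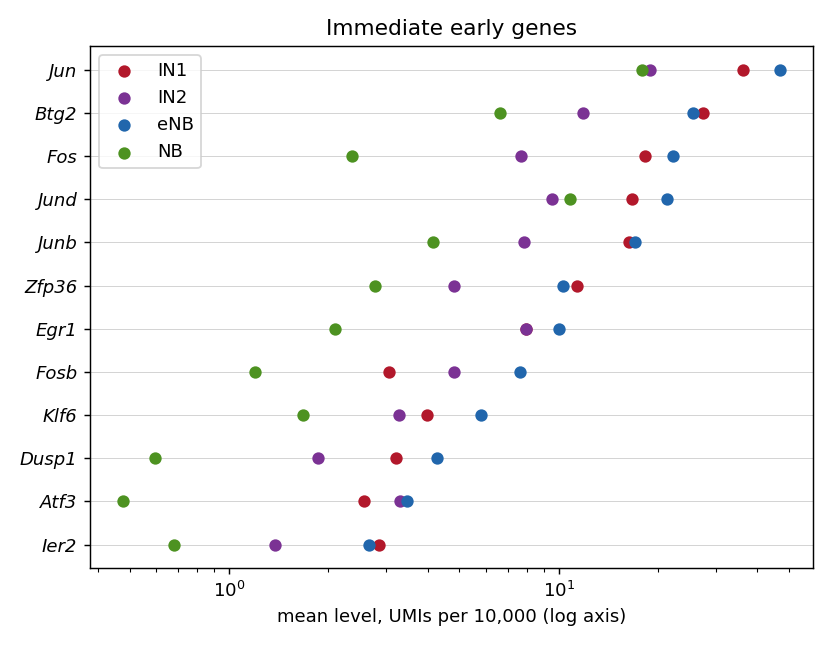
Level of 12 immediate early genes in IN1, IN2, eNB and NB, in UMIs per 10,000 on a log axis, as means over the cells of both libraries. IN1 and eNB lie close together for most genes and NB lies lowest, with Fos at 18.3 in IN1, 22.2 in eNB and 2.36 in NB.

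Several genes of inflammation and stress were also higher than in NB. Socs3, an inhibitor of cytokine signalling, was at 1.92 in IN1 and 0.20 in NB, and Ppp1r15a, a phosphatase subunit gene, had a log2 ratio over NB of 2.65. Klf2, a zinc finger gene, stood at 4.42 against 0.798. Of 10 cytokine and NF-kB genes, 5 reached the level minimum and these were 2-fold or more above NB, against 2.31% of all genes. Among them were Nfkbiz (3.41 against 0.748), Nfkbia (3.20 against 1.5) and Il1a (1.12 against 0.484), and none differed by 2-fold from eNB. Il1a and Socs3 reached the minimum through their IN1 level alone, so the filter fixed their direction. The chemokine gene Ccl4 had 66 UMIs in 12 cells, all WT, and 1 cell held 23 of them. Lower than in NB were Cep112, Slc30a5, a zinc transporter gene, at 0.209 against 0.591, Lgals3bp, an interferon-responsive gene, at 0.204 against 0.590, Apoe at 1.65 against 4.46 and Csf2rb, a cytokine receptor subunit gene, at 0.224 against 0.550.

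Against IN2, most genes of protein synthesis and respiration were higher in IN1. Of 84 ribosomal protein genes, 80 reached the level minimum and 79 were 2-fold or more higher, against 19.0% of all genes, with a median log2 ratio of 2.11, and they summed to 438 in IN1, 435 in eNB and 99.4 in IN2. The same held for 21 of 24 genes of respiratory complex I and 15 of 16 of ATP synthase. Single genes included Atp5e, an ATP synthase subunit gene (1.5 against 0.146), Sec61b, of the translocon of the endoplasmic reticulum (0.772 against 0.077), and Mrpl18, of the mitochondrial ribosome (0.564 against 0.043). The microglia markers were also higher, 9 of 12 by 2-fold or more with a median log2 ratio of 1.24.

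Lower than in IN2 were the long neuronal genes, of which Pcdh9, Lsamp and Cadm2 were among the 10 with the largest ratios, and others such as Tiam1, an activator of Rac1, at 0.159 against 1.11. The genes from 300 to 1000 kb summed to 557 in IN1 and 1205 in IN2. Malat1 stood at 283 and 334. The median UMIs per cell differed 8697.5 to 3102.5 between the clusters, and after thinning to 4500 UMIs, which left 73 IN2 cells, 950 genes were higher in IN1 and 1058 lower. The median log2 ratio of the 20 long neuronal genes over IN2 moved from -2.66 to -3.74, the latter against those 73 deeper IN2 cells only.

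Genes of other cell types and states were counted in the same way. The lists of lymphocytes, mural cells and ependyma had 0 UMIs, and those of monocytes and neutrophils had 1. Of 8 border macrophage genes, 6 had 0 UMIs, Mrc1 had 1 and Stab1 stood at 2.18 against 1.93 in eNB. The oligodendrocyte genes summed to 1.08 in IN1 and 0.99 in eNB, and the astrocyte genes to 3.38 and 3.31, nearly all of it from the glutamate transporter gene Slc1a3 at 3.17 and 3.14. Of the 9 stem cell genes, Nes, Sox2, Gfap and Pax6 had 0 UMIs and the other 5 had 8 in all, a sum of 0.161 against 0.0791 in eNB. The 9 genes of intermediate progenitors and cycling cells had 21 UMIs, 19 of them from Pcna, a replication and repair gene, while 6, Mki67 and Top2a among them, had 0. The 6 oligodendrocyte precursor genes had 4 UMIs and a sum of 0.103 against 0.0145 in eNB, 7.10-fold above, which rests on those 4 UMIs. Of 11 listed genes that rise in disease-associated microglia, 5 reached the level minimum in IN1 or eNB. Among these, Trem2 (14.7 against 14.5 in eNB), Tyrobp (16.6 against 16.2) and Ctsb (7.23 against 7.79) were near their eNB level. Apoe, of the same list, was lower than in eNB by over 2-fold (log2 -1.18). The MHC class I gene H2-D1 was at 3.25 against 2.22. Vegfa, the floxed gene, had 0 UMIs in IN1, which allows a level of up to 0.0707, and stood at 0.019 in eNB, so neither its absence nor its deletion was detectable at this depth.

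IN1 made up 0.740% of the WT library (41 of 5543 cells, interval 0.531 to 1.0%) and 0.171% of the iKD library (9 of 5261 cells, 0.0783 to 0.324%). With 1 library per genotype, this difference cannot be told apart from a difference between libraries. The median depth was 8051 UMIs per cell in the WT library and 7080 in the iKD library. The long neuronal genes summed to 8.41 in the WT and 9.33 in the iKD cells of IN1, against 1.93 and 1.20 in eNB, which is 4.36-fold and 7.79-fold. All 9 iKD cells had list UMIs, from 3 to 12 per cell. Lsamp stood at 0.682 in WT and 0.627 in iKD cells, Rbfox1 at 1.20 and 1.5 and Nav3 at 19.8 in both. Of the 20 genes, 4 had no UMI in the 9 iKD cells, and the other 16 were 2-fold or more above eNB there, as were 18 in the WT cells. In only 9 cells a single UMI already exceeds the eNB level of most of these genes, so the count of 16 carries no weight.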

How the data were processed

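EYFP+ libraries of the adult mouse DG were analysed, 1 WT and 1 iKD, each of 5 pooled mice. The authors deposited natural log values, the log of 1 plus counts per 10,000 UMIs of the cell, in 1 table for each of 12 clusters, with cells in columns. The submitters' processing notes name Cell Ranger 7.0.1 and Seurat 4.1.1. Per the methods, cells were filtered on gene number and mitochondrial share before clustering. The deposited cells do not all meet the stated lower limit on gene number: IN2 had a median of 1521 genes and a minimum of 1005, both below it, and IN1 none below it. The mouse genome build is not given in the sources used here, nor is whether intronic reads were counted, which would add to long genes.

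UMI counts were recovered from the natural log values, since those of a cell are whole multiples of its smallest value once taken out of the log. Of 32261786 values above 0, 100% came out whole within 0.001 UMI. All 10804 cells were used, with no doublet caller, and 0 columns were left unused. The WT library held 44142118 UMIs and the iKD library 37451839. Levels are means of counts per 10,000, and ratios are log2 with a pseudocount of 0.01 among genes at 0.5 or more in the higher cluster. Summed UMIs have exact Poisson intervals, ratios exact binomial intervals of the counts and shares Clopper-Pearson intervals, at 95%. A count of 0 was given the limit of 3 counts. Thinning drew 4500 UMIs from each cell without replacement and left out shallower cells.

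The members and gene lists were chosen with earlier results of these data known. Genes named were the study's 3 markers, those of 28 marker and response lists, the 10 highest in IN1 and Vegfa. Also named were the 10 with the largest ratio in each direction against each cluster, among genes in at least 20% of cells of the higher one. The 10 furthest above all other clusters were taken among genes in at least 20% of IN1 cells. The 14 synaptic families, the level minimum of 0.2 and the omission of the top cell were chosen after the data were seen. The results of some genes that this rule names are not reported here, although sums and counts over lists include them. Alternatives were pseudocounts of 0.1 and 1, summed UMIs, a minimum of 1 or none, each library alone, another denominator, centred ratios, thinning and leaving out the top 5% of cells by gene number. Spans and coordinates are from GENCODE M21 (GRCm38), matched by symbol for 31490 of 32285 genes. The steps were tested on simulated data. Python 3.11.15, numpy 2.4.6, scipy 1.17.1, pandas 2.3.3 and matplotlib 3.10.9 were used.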

Additional observations from a re-analysis of the deposited data

How the results depend on the processing

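All counts rest on 50 cells, 9 of them iKD, and on 1 library per genotype. No paired analysis was possible because each genotype had 1 library and no test was made. Counts of genes moved by over 1.5 times as follows. Higher than IN2 were 884 genes, and 190 with a pseudocount of 1, 458 with a minimum of 1, 2639 with none and 1476 with 0.2. Lower were 775, and 97, 412, 4549 and 1373 in the same order, 1258 in iKD cells only and 498 with centred ratios. Higher than eNB were 12, and 7 with a pseudocount of 0.1, 0 with 1, 2 with a minimum of 1, 1326 with none, 116 with 0.2, 23 in WT cells only, 455 in iKD cells only and 38 after thinning. Lower were 22, and 11, 3, 8, 1535 and 133 in the same order, 420 in iKD cells only and 61 after thinning. Higher than NB were 98, and 24 with a pseudocount of 1, 62 with a minimum of 1, 1643 with none, 254 with 0.2 and 466 in iKD cells only. Lower were 32, and 10 with a pseudocount of 0.1, 2 with 1, 4 with a minimum of 1, 1583 with none, 218 with 0.2, 59 in WT cells only, 486 in iKD cells only, 21 with centred ratios and 99 after thinning. Higher minimums and fewer cells change these counts by their construction, since fewer genes or UMIs enter. For the causes of the others no test was made.

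The direction of single genes turned only within a library. In iKD cells only, the log2 ratio was -1.47 against eNB and -2.46 against NB for Cadm2. It was -1.01 for Prdm10 and -0.48 for Mttp against eNB, and -4.58 for Gm48089 and -5.27 for Ccl4 against NB. In WT cells only it was 0.64 against eNB and 0.23 against NB for Ttr. In all, 8 values of single genes and lists reversed, 380 moved and 2382 did neither. All 20 long neuronal genes were above eNB in every alternative except iKD cells only, where the 16 with a UMI were. With a pseudocount of 1 none of the 20 reached 2-fold over eNB.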

Other observations

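Some differences from eNB rested on 1 cell. Abtb2, Clvs1 and Naaladl2, chosen after their values were seen, were 2-fold or more higher in IN1 at the 0.2 minimum and had all their UMIs (22, 16 and 11) in 1 IN1 cell each. Tmx4, a thioredoxin family gene, was lower than in eNB (4.95 against 11.4), although 1 cell held 32 of its 207 UMIs, and without that cell the log2 ratio was -1.45. Ccl4 stayed above NB without its top cell (log2 2.06).

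Glucocorticoid response genes were near their eNB level in IN1. Sgk1, a kinase gene, stood at 8.68 against 6.93, Fkbp5, a chaperone gene of the glucocorticoid receptor, at 4.89 against 3.97, and Tsc22d3 at 1.89 against 2.38. Among interferon response genes, Bst2 stood at 0.623 against 0.742, while 5 of the 10 had 0 UMIs.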
